A study of Mus musculus with 78 samples.

Results

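Gene expression was compared between the ventral hippocampus and the cortex of the same mice by sequencing of poly(A) RNA. The comparison holds 22 of the 78 libraries of the series, 11 of each region, from the 11 of 12 mice that have both regions by the labels; a cortex library of mouse 23 was not analysed here. Of these mice, 6 were KO, with a constitutive deletion in Acss2, and 5 were WT. By sex, 3 male and 3 female mice were KO, and 3 male and 2 female mice were WT. The deletion was made in the C57BL6/J strain with CRISPR guides in the introns that flank exons 3 to 7, founders were backcrossed to it, and KO mice carry the deletion in every cell. All groups were single-housed adults that had drunk ethanol under a schedule called drinking in the dark, used to study bouts of high intake. After 1 week of habituation they could choose between water and 15% ethanol by volume, for 2 h on each of days 1 to 3 and for 4 h on day 4. A further week followed in which ethanol was the liquid offered in the sessions. Both genotypes share this treatment, so no value here is from a mouse without ethanol. Age in weeks and the time between drinking and dissection are not given in the sources used here, and neither are the borders of the dissections.

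The hippocampus and the neocortex are both built mainly from glutamatergic pyramidal neurons, with GABA neurons among them. In the hippocampus, granule cells of the dentate gyrus send axons to the CA fields, which project on to the subiculum; the ventral pole is linked with the amygdala, the hypothalamus and the ventral striatum and is studied for anxiety, stress and reward. Neurons of the neocortex are stacked in layers with different inputs and targets, and many transcription factors and surface molecules mark single layers or hippocampal fields.

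The total count was 629635 to 1206013 in the ventral hippocampus (median 961215) and 716543 to 1014092 in the cortex (median 860269), and it was higher in the ventral hippocampus in 8 of 11 mice. Values are counts scaled to the library total (CPM); 3 counts, taken as the floor, correspond to 2.49 to 4.76 CPM in the ventral hippocampus and 2.96 to 4.19 CPM in the cortex, which covers counting error only. Acss2 followed the labelled genotype: it was at 49.1 to 71.7 CPM in the WT ventral hippocampus (median 55.1, n = 5), 0.971 to 9.60 CPM in the KO one (median 6.42, n = 6), 48.6 to 62.7 CPM in the WT cortex (median 59.9) and 3.30 to 14 CPM in the KO cortex (median 7.38). Acss2 did not pass the test between regions (log2 fold change -0.07, SE 0.15, adjusted p = 0.855). The ventral hippocampus library of mouse 6, a female KO mouse, stood apart. Its summed level of 14 genes of striatal projection neurons was 4356 CPM, against 166 to 303 CPM in the other 10 ventral hippocampus libraries and 303 to 778 CPM in the cortex. In that library Ppp1r1b (DARPP-32) was at 1079 CPM and the dopamine receptor Drd2 at 110 CPM, and its summed level of oligodendrocyte genes was the highest, 10043 CPM. Results are given with this library, and values without both libraries of mouse 6 stand beside those that rest on it. In the cortex of mice 1, 10, 12 and 13 a gene annotated as ribosomal RNA, CT010467.1, took 7561 to 18650 CPM, against 970 to 2490 CPM in the other 7. Column numbers in the deposited tables place the libraries of each region in blocks, so region and library order cannot be told apart, and in bulk tissue fewer cells of a type cannot be told apart from less RNA per cell.

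The first question was which genes differ between the regions. Of 9756 genes tested within mice with edgeR's quasi-likelihood test, 2704 differed at an adjusted p under 0.05 (27.7%). Of these, 1348 were higher (13.8%) and 1356 were lower (13.9%) in the ventral hippocampus, and 203 and 209 of them by at least 2-fold (a log2 fold change of 1). The difference had the same sign in all 11 mice for 440 of the higher and 486 of the lower genes. For 288 genes (2.95%) the CPM ranges of the regions did not overlap, 114 of them higher and 174 lower in the ventral hippocampus. The median log2 fold change over all genes was 0.01.

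The genes with the largest increase in the ventral hippocampus included a peptide receptor, calcium-binding proteins and synaptic proteins. Npy2r, which encodes the presynaptic Y2 receptor for neuropeptide Y (GRCm38 chr3:82538383-82548084, minus strand), was at 11.4 to 112 CPM in the ventral hippocampus, with a median of 48. In the cortex Npy2r was at 0 to 8.88 CPM with a median of 2.58, at or near the floor. The ranges did not overlap, and the log2 fold change was 3.99 (SE 0.29, adjusted p = 1.11e-09). This was the largest among the tested genes with a mean of at least 10 CPM and 1 direction in all 11 mice. Genes left out of the test by the filter on low counts, such as C1ql2 and Dsp below, were not ranked. Shisa6, an auxiliary protein of AMPA receptors (chr11:66211725-66525964, minus strand), was at 29.1 to 166 CPM (median 100.1) against 2.2 to 15.1 CPM (median 6.98) in the cortex. Each ventral hippocampus library had more Shisa6 than any cortex library (log2 fold change 3.50, SE 0.14, adjusted p = 3.24e-13). Cabp7, a calcium-binding protein, was at 129 to 467 CPM (median 192) against 10.6 to 34.5 CPM (median 20.5) in the cortex (log2 fold change 3.39, SE 0.21, adjusted p = 1.42e-10). Doc2b, a calcium sensor of vesicle release, was at 38.4 to 189.9 CPM (median 139) against 2.09 to 26 CPM (median 10.8) (log2 fold change 3.36, SE 0.20, adjusted p = 1.21e-10). Cpne7, of the copine family of calcium-dependent membrane binders, was at 88.8 to 523 CPM (median 199) against 12.9 to 45.5 CPM (median 25.6) (log2 fold change 3.14, SE 0.20, adjusted p = 1.42e-10). For these 3 genes too the regions did not overlap. Fibcd1, a gene of CA1 pyramidal cells, was at 19.1 to 292 CPM (median 117) against 1.17 to 19.4 CPM (median 6.98) (log2 fold change 3.82, SE 0.28, adjusted p = 1.13e-09). Its ranges overlapped at their edges, and it was higher in each of the 11 mice, which the choice of these genes required. The other genes among the 15 with the largest increase were Prox1, Crym, Pkp2, Nnat, Gpr161, Homer3, Foxo6, Agt and Pcdh20, with log2 fold changes from 2.44 (Pcdh20) to 3.13 (Prox1). Agt encodes angiotensinogen, and Homer3 a scaffold of postsynaptic metabotropic glutamate receptors. In 11 of the 15 genes the ranges did not overlap.

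**Figure D1:**
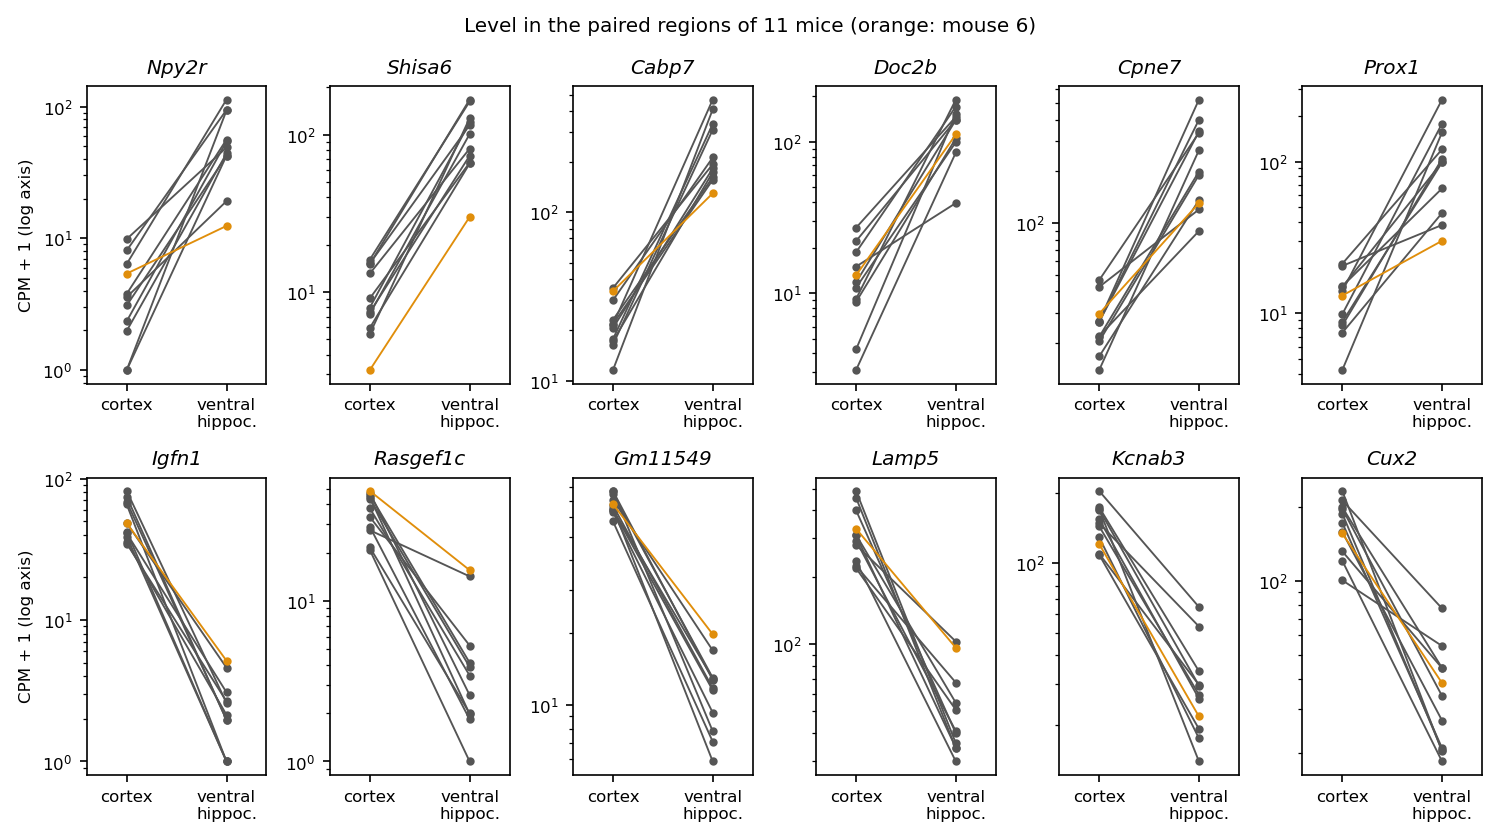
CPM + 1 on a log axis in the cortex and the ventral hippocampus of 11 mice for 6 of the genes with the largest increase (top) and 6 of those with the largest decrease (bottom); each line joins the 2 libraries of 1 mouse, and mouse 6 is orange. The genes were chosen to have 1 direction in all 11 mice, so all lines of the top row rise from cortex to ventral hippocampus and all lines of the bottom row fall.

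The largest decrease was that of Igfn1, an immunoglobulin-like and fibronectin domain gene (chr1:135953578-136006342, minus strand). It was at 0 to 4.15 CPM in the ventral hippocampus (median 1.13) and at 33.7 to 80.6 CPM in the cortex (median 47.3). Most of the ventral hippocampus values lie under the floor, so that the log2 fold change of -5.01 (SE 0.26, adjusted p = 1.80e-11) is a fitted value for a gene barely counted in 1 region. Lamp5, a membrane protein of upper layer and of some GABA neurons (chr2:136052239-136069917), was well counted in both: 28.8 to 102 CPM (median 39.7) in the ventral hippocampus against 219 to 488 CPM (median 308) in the cortex, with no overlap (log2 fold change -2.65, SE 0.18, adjusted p = 6.83e-10). The potassium channel beta subunit Kcnab3 was at 12.9 to 63.6 CPM (median 26) against 108 to 204 CPM (median 148) (log2 fold change -2.38, SE 0.14, adjusted p = 8.74e-11), also without overlap. The channel gene Kcnh4 was at 0 to 12.5 CPM (median 3.2) against 16.7 to 38.5 CPM (median 24.1) (log2 fold change -2.67, SE 0.25, adjusted p = 4.97e-08), without overlap. The Wnt amplifier Rspo1 and the BMP antagonist Chrdl1 had log2 fold changes of -3.29 and -2.42. The remaining genes were Rasgef1c, Dkkl1, Gm11549, Ankrd34c, Cpne9, C130074G19Rik, Coch, Tmem215 and Cux2, with log2 fold changes from -3.16 (Rasgef1c) to -2.32 (Cux2). In 12 of these 15 genes the ranges did not overlap. Cpne9 lies opposite to its relative Cpne7: its log2 fold change was -2.61 (SE 0.23, adjusted p = 2.10e-08) and that of Cpne7 3.14. The size of the shift varied between mice. The median log2 ratio over the 15 higher genes, of CPM with 1 added, was 1.93 in mouse 6 and 3.65 in mouse 3; over the 15 lower genes it was -1.52 in mouse 10 and -3.49 in mouse 5.

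The dorsal hippocampus and the prefrontal cortex of the same mice were set beside these 30 genes as a description, without a test. Their libraries held 4454420 to 8607138 counts (dorsal hippocampus, n = 11) and 944634 to 1228828 counts (prefrontal cortex, n = 7). All 15 genes with the largest increase had a dorsal hippocampus median above the highest cortex value. For 10 of these 15 every dorsal hippocampus library was above every cortex library. All 15 with the largest decrease were lower in every dorsal hippocampus library than in any cortex library. So by its median the dorsal hippocampus lay on the side of the ventral hippocampus for all 30 genes. The prefrontal cortex lay outside the cortex range for many of them. Its median was above the highest cortex value for 9 of the 15 higher genes. For the 15 lower genes its median was below the lowest cortex value in 12 and above the highest ventral hippocampus value in 8. Crym, which encodes a thyroid hormone binding protein, had a prefrontal median of 129 CPM, against 24.2 CPM in the cortex and 203 CPM in the ventral hippocampus. Kcnab3 had a prefrontal median of 23.3 CPM, close to the 26 CPM of the ventral hippocampus, while the cortex was at 148 CPM. Tmem215 had a prefrontal median of 0.878 CPM against 39.6 CPM in the cortex, and Rspo1 2.83 CPM against 22.3 CPM. Rasgef1c, in contrast, was at 27.5 CPM in the prefrontal cortex and 36.7 CPM in the cortex, both above the 2.43 CPM of the ventral hippocampus.

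**Figure D2:**
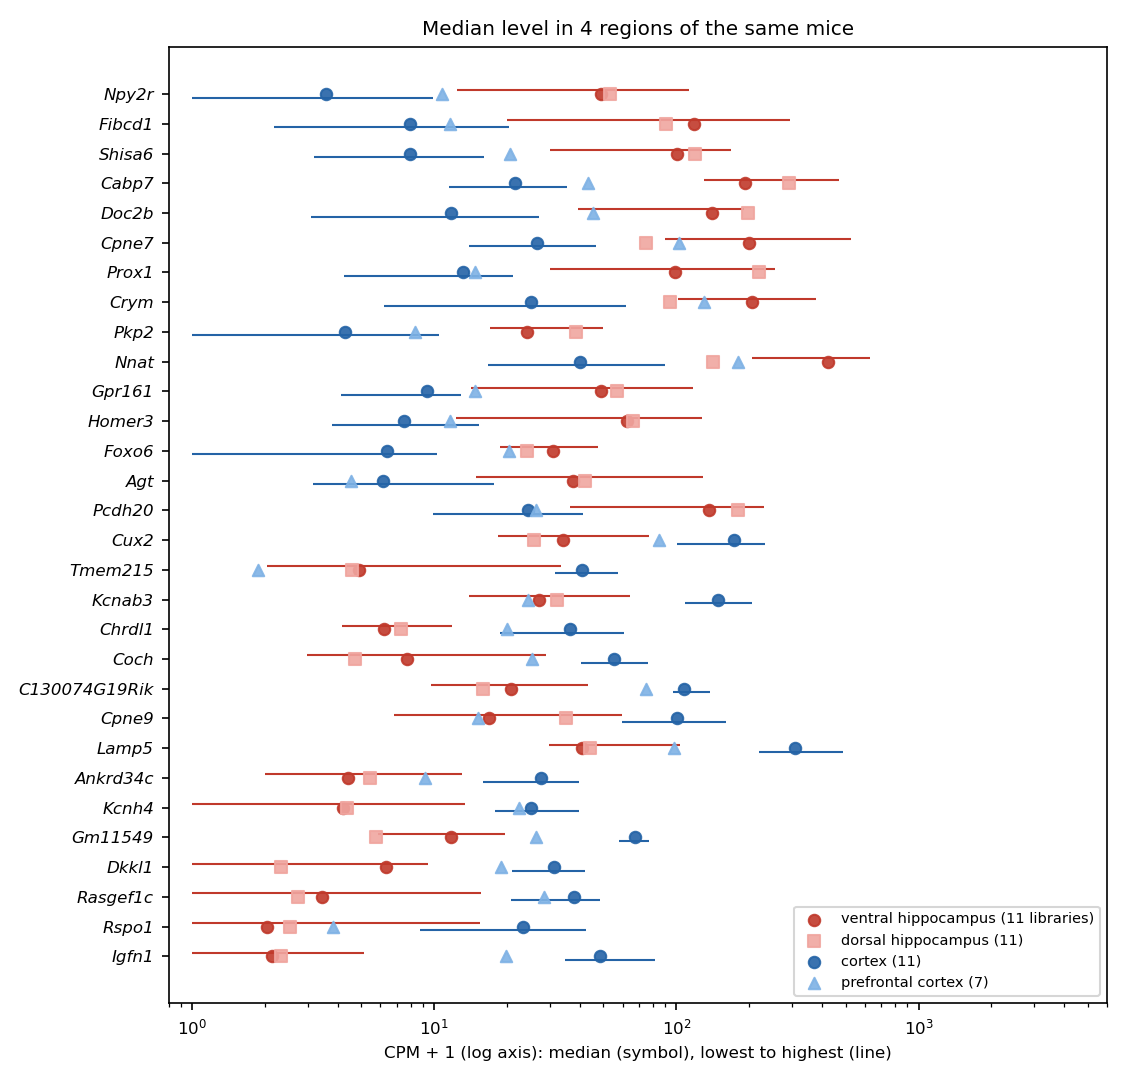
Median CPM + 1 on a log axis of the 30 genes with the largest increase (upper 15) and decrease (lower 15) in the ventral hippocampus, in 4 regions of the same 11 mice (7 for the prefrontal cortex); lines span the lowest to the highest library of the ventral hippocampus and of the cortex. Dorsal hippocampus squares lie on the side of the ventral hippocampus, and prefrontal triangles lie between the regions or with the ventral hippocampus for many genes.

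Genes that mark hippocampal fields were higher in the ventral hippocampus or did not pass, with few exceptions. A gene was tested only if it had about 11 CPM or more in 11 libraries, so that a gene confined to 1 region could pass on that region alone, and one that varied among the libraries of a region could drop out. Of 20 genes of the CA fields, 15 were tested, 9 were higher and 1 was lower, with a median log2 fold change of 0.66. Over all genes the median was 0.01, with 13.8% higher and 13.9% lower. These shares are the background for the counts of every list below. Zbtb20, a transcription factor of hippocampal pyramidal and granule cells, was at 96.1 to 215 CPM (median 158) against 32.5 to 73.2 CPM (median 48.2) in the cortex, with no overlap (log2 fold change 1.58, SE 0.12, adjusted p = 1.40e-09). Neurod6, a transcription factor of pyramidal neurons, was at 87.4 to 334 CPM (median 124) against 28.8 to 83.7 CPM (median 57.2), also without overlap (log2 fold change 1.35, SE 0.20, adjusted p = 1.72e-05). Amigo2, a cell adhesion gene known from CA2 and CA3, had a log2 fold change of 1.36 and the kainate receptor subunit Grik4 1.40. The proteoglycan Spock1 was the member that was lower (log2 fold change -0.48, SE 0.13, adjusted p = 0.00735), and the CA1 gene Wfs1 did not pass (log2 fold change 0.14, SE 0.26, adjusted p = 0.742). The summed level of the 20 genes was 1251 to 2337 CPM in the ventral hippocampus and 1052 to 1249 CPM in the cortex.

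Dentate gyrus genes were higher in the ventral hippocampus for 6 of the 12 that were tested, and they spread widely among its libraries. Of the 18 genes listed, 1 was lower and 5 of those tested passed in neither direction (median 0.54); with no filter on low counts 12 were higher. The median log2 ratio of the tested members was 1.57 in mouse 4 and 1.44 in mouse 12, but -0.60 in mouse 10 and -0.10 in mouse 11. Prox1, the transcription factor that fixes granule cell identity, was at 29.1 to 255 CPM (median 97.9) in the ventral hippocampus against 3.24 to 20.2 CPM (median 12.1) in the cortex, with no overlap (log2 fold change 3.13, SE 0.26, adjusted p = 6.26e-09). Dock10, a guanine nucleotide exchange factor, was at 45.6 to 171 CPM (median 90.3) against 9.42 to 30.5 CPM (median 25.6) (log2 fold change 1.88, SE 0.18, adjusted p = 4.97e-08), and Pcdh8, an activity-regulated protocadherin, at 20.4 to 87.5 CPM (median 74.9) against 11.2 to 44.4 CPM (median 22) (log2 fold change 1.42, SE 0.17, adjusted p = 1.21e-06). The regions did not overlap for Dock10 and overlapped for Pcdh8. C1ql2 and Dsp, granule cell genes below the filter, were at 8.31 to 209 and 6.23 to 109 CPM in the ventral hippocampus, and at most 2.79 and 1.1 CPM in the cortex. For both genes mouse 6 was lowest, mouse 10 next and mouse 12 highest. The summed level of the 18 genes was lowest in mouse 10 (600.3 CPM) and highest in mouse 12 (2279 CPM), while it was 499 to 775.5 CPM in the cortex, so the regions overlapped. The interneuron calcium buffer Calb2, which also marks hilar mossy cells of the dentate gyrus, was at 5.19 to 143 CPM (median 64.7) against 4.19 to 13.2 CPM (median 8.87) and higher in 9 of 11 mice (log2 fold change 2.67, SE 0.32, adjusted p = 1.22e-06). The member that was lower was Plk5 (log2 fold change -0.83, SE 0.24, adjusted p = 0.0108); it was lower in 8 of 11 mice.

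Of 19 genes listed for the ventral pole and the subiculum, 18 were in the tables and 11 were tested, 8 were higher and 1 was lower (median 0.80); with no filter 13 were higher. Nnat, an imprinted gene of the endoplasmic reticulum membrane, was at 203 to 631 CPM (median 424) in the ventral hippocampus against 15.7 to 88.8 CPM (median 39.1) in the cortex, with no overlap (log2 fold change 3.02, SE 0.26, adjusted p = 1.14e-08). Its dorsal hippocampus median was 141 CPM. Nr2f2 (COUP-TFII), a nuclear receptor, was at 12.5 to 78 CPM (median 45.4) against 5.17 to 23.7 CPM (median 11.8) and higher in 10 of 11 mice (log2 fold change 1.71, SE 0.28, adjusted p = 6.25e-05). Dcn, which encodes decorin, was at 6.0 to 254 CPM (median 64.7) against 3.49 to 15.4 CPM (median 7.04) and higher in 9 of 11 mice (log2 fold change 2.99, SE 0.37, adjusted p = 2.25e-06). The Dcn values of mice 10, 6 and 13 lay within the cortex range, whereas that of mouse 5 was 254 CPM. The adhesion molecule Cadm1 had a log2 fold change of 0.80 and the secreted Ccn3 one of 0.78, which did not pass without mouse 11 (adjusted p 0.0506). The thyrotropin-releasing hormone receptor Trhr and the peptide gene Grp, both below the filter, had medians of 16 and 34 CPM in the ventral hippocampus and of 3.49 and 2.22 CPM in the cortex. Coch, an extracellular protein gene of the same list, was lower (log2 fold change -2.50, SE 0.24, adjusted p = 5.23e-08). Summed over the list, the level in the ventral hippocampus ran from 714.8 CPM in mouse 13 to 2435 CPM in mouse 5. In the cortex the sum was 389.5 to 893.2 CPM, so the regions overlapped. The shift of the list varied between mice. The median log2 ratio of the tested members was -0.12 in mouse 12 and -0.08 in mouse 6, and positive in the other mice. It was 0.03 in mouse 1 and 1.72 in mouse 5. Of the 11 tested members, 1 was higher and 1 was lower in all 11 mice.

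Cortical layer genes split by depth. Of 15 genes of the upper layers and layer 4, 12 were tested, 8 were lower and 1 was higher (median -1.21). Cux2, a homeobox gene of upper layer neurons, was at 17.4 to 76.2 CPM (median 33) in the ventral hippocampus against 99.6 to 231 CPM (median 172) in the cortex, with no overlap (log2 fold change -2.32, SE 0.18, adjusted p = 3.02e-09). Its relative Cux1 was at 37.7 to 76.8 CPM (median 55.5) against 121 to 167 CPM (median 136), again with no overlap (log2 fold change -1.45, SE 0.11, adjusted p = 3.02e-09). Rorb, the nuclear receptor of layer 4, was at 9.36 to 36 CPM (median 19.1) against 54.4 to 76.2 CPM (median 66.9), with no overlap (log2 fold change -1.72, SE 0.15, adjusted p = 1.43e-08). Rorb also had a low prefrontal median, 15.1 CPM. The cadherin Cdh13 was the member that was higher, in 7 of 11 mice (log2 fold change 0.76, SE 0.20, adjusted p = 0.00705). The summed level of the list did not overlap between regions: 453.6 to 891.1 CPM in the ventral hippocampus and 1018 to 1728 CPM in the cortex. Of 22 deep layer genes 20 were in the tables and 13 were tested; 11 were higher in the ventral hippocampus (median 0.83). By edgeR's test 0 were lower, also at an unadjusted p under 0.05, and DESeq2 gave 10 higher and 0 lower. The shift of the deep layer list varied between mice. The median log2 ratio of its tested members was -0.19 in mouse 13 and positive in the other mice. It was 0.04 in mouse 12 and 1.92 in mouse 11. Of the 13 tested members, 2 were higher in all 11 mice. The summed level of the list was 659 to 1715 CPM in the ventral hippocampus and 323.5 to 659.1 CPM in the cortex. These ranges overlapped at their edges. Some of the members that moved are also known from hippocampal or subicular neurons. They include Crym (log2 fold change 3.03, SE 0.21, adjusted p = 4.64e-10) and the transcription factor Bcl11b, or CTIP2 (log2 fold change 1.56, SE 0.13, adjusted p = 4.64e-09). Fezf2 (log2 fold change 1.04, SE 0.23, adjusted p = 0.00167) and the orphan receptor Nr4a2 are others. Bcl11b was at 40.8 to 192 CPM (median 148) against 26.2 to 64.4 CPM (median 44) and higher in all 11 mice. Etv1 and Tle4 had log2 fold changes of 0.72 and 0.66. The layer 6 gene Rprm did not pass the test (log2 fold change -0.15, SE 0.30, adjusted p = 0.754). Fewer deep layer genes were higher in WT mice alone (6) and in male mice alone (5, with 1 lower), as were fewer of all genes.

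**Figure D3:**
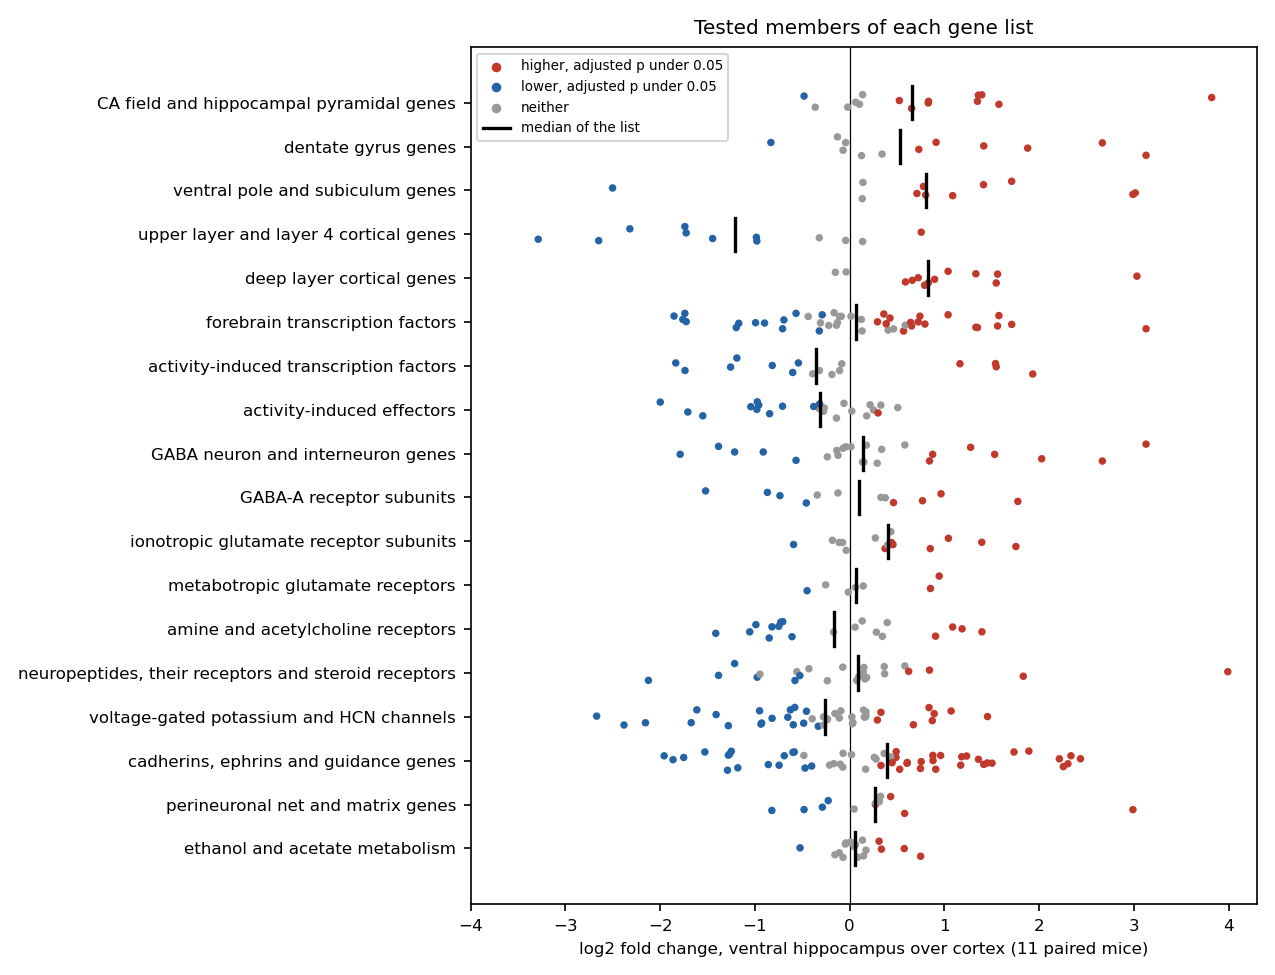
Log2 fold change, ventral hippocampus over cortex, of the tested members of 18 gene lists (1 point a gene; red higher, blue lower at an adjusted p under 0.05, grey neither); the black bar is the median of the list. Hippocampal and deep layer lists have medians from 0.54 to 0.83, and the upper layer list -1.21.

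Transcription factors of the forebrain moved in both directions. Of 50, 44 were tested, 17 were higher and 13 were lower (median 0.07). Besides Prox1, Zbtb20, Nr2f2 and Bcl11b, the bHLH genes Neurod1 and Neurod2 were higher (0.80 and 0.57 on the log2 scale), as was the repressor Zeb2 (0.65). Mef2c, an activity-dependent factor of excitatory neurons, was at 117 to 310.4 CPM (median 179) in the ventral hippocampus against 533 to 896 CPM (median 699) in the cortex, with no overlap (log2 fold change -1.85, SE 0.14, adjusted p = 2.45e-09). Its relative Mef2a was higher by 0.36 on the log2 scale in all 11 mice, and Mef2d did not pass (log2 fold change -0.11, SE 0.075, adjusted p = 0.318). Tbr1 and Emx1, which mark cortical excitatory neurons, had log2 fold changes of -1.20 and -1.17. Nr2f1 had -0.32 (adjusted p = 0.0319) and did not pass without mouse 4, 5, 6 or 10 (adjusted p 0.0199 to 0.0852 with each mouse left out in turn), being at -0.20 without mouse 6.

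Genes that neurons induce after activity were lower in the ventral hippocampus or did not pass the test, except for 5 that were higher. Neurons switch these genes on within minutes to hours of calcium entry, partly through the factor CREB. Of 24 such transcription factors, 16 were tested, 7 were lower and 4 were higher (median -0.35); with no filter 11 were lower. Of 28 effectors, 27 were in the tables and 23 were tested; 11 were lower and 1 was higher (median -0.32). Egr1, a zinc finger factor, was at 44.9 to 220.1 CPM (median 70.5) in the ventral hippocampus against 199.7 to 360.5 CPM (median 271) in the cortex and lower in all 11 mice (log2 fold change -1.83, SE 0.18, adjusted p = 9.10e-08). Among the ventral hippocampus libraries, that of mouse 6, at 220.1 CPM, reached the cortex range. Fos was at 0 to 13.2 CPM (median 5.67) against 11.1 to 34.5 CPM (median 18.6) and lower in all 11 mice (log2 fold change -1.74, SE 0.28, adjusted p = 4.75e-05). Ier5 was at 26.9 to 63.6 CPM (median 44.9) against 80.3 to 134 CPM (median 114), with no overlap (log2 fold change -1.26, SE 0.11, adjusted p = 8.64e-09). Npas4, the factor most tightly tied to calcium entry, was below the filter, with a median of 3.6 CPM in the ventral hippocampus and 8.88 CPM in the cortex.

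Among the effectors, Rgs4, a regulator of G protein signalling, was at 93.5 to 531 CPM (median 173) in the ventral hippocampus against 477 to 1009 CPM (median 739) in the cortex and lower in all 11 mice (log2 fold change -2.0, SE 0.17, adjusted p = 7.30e-09). Arc, which drives AMPA receptor endocytosis, was at 23.8 to 119 CPM (median 65.5) against 76.6 to 274 CPM (median 199) and lower in 10 of 11 mice, mouse 1 being the exception (log2 fold change -1.55, SE 0.24, adjusted p = 3.31e-05). Dusp14, a phosphatase gene, was at 10.4 to 30.4 CPM (median 22.8) against 52.8 to 102 CPM (median 74), with no overlap (log2 fold change -1.71, SE 0.13, adjusted p = 1.56e-09). The scaffold Homer1 was at 85.1 to 281 CPM (median 116) against 197 to 322 CPM (median 208) and lower in each mouse but mouse 6 (log2 fold change -0.96, SE 0.13, adjusted p = 5.16e-06). Bdnf, the neurotrophin, was at 15.6 to 61.4 CPM (median 36.5) against 17.8 to 45.2 CPM (median 30.2) and did not pass (log2 fold change 0.18, SE 0.19, adjusted p = 0.526). The secretogranin Scg2 was the effector that was higher (log2 fold change 0.30, SE 0.11, adjusted p = 0.0463), and it did not pass without mouse 2, 3, 4, 6, 10, 11, 12 or 13 (adjusted p 0.0149 to 0.116 with each mouse left out in turn). The summed level of the 27 effectors was 1197 to 2055 CPM in the ventral hippocampus and 2077 to 2855 CPM in the cortex, with no overlap.

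**Figure D4:**
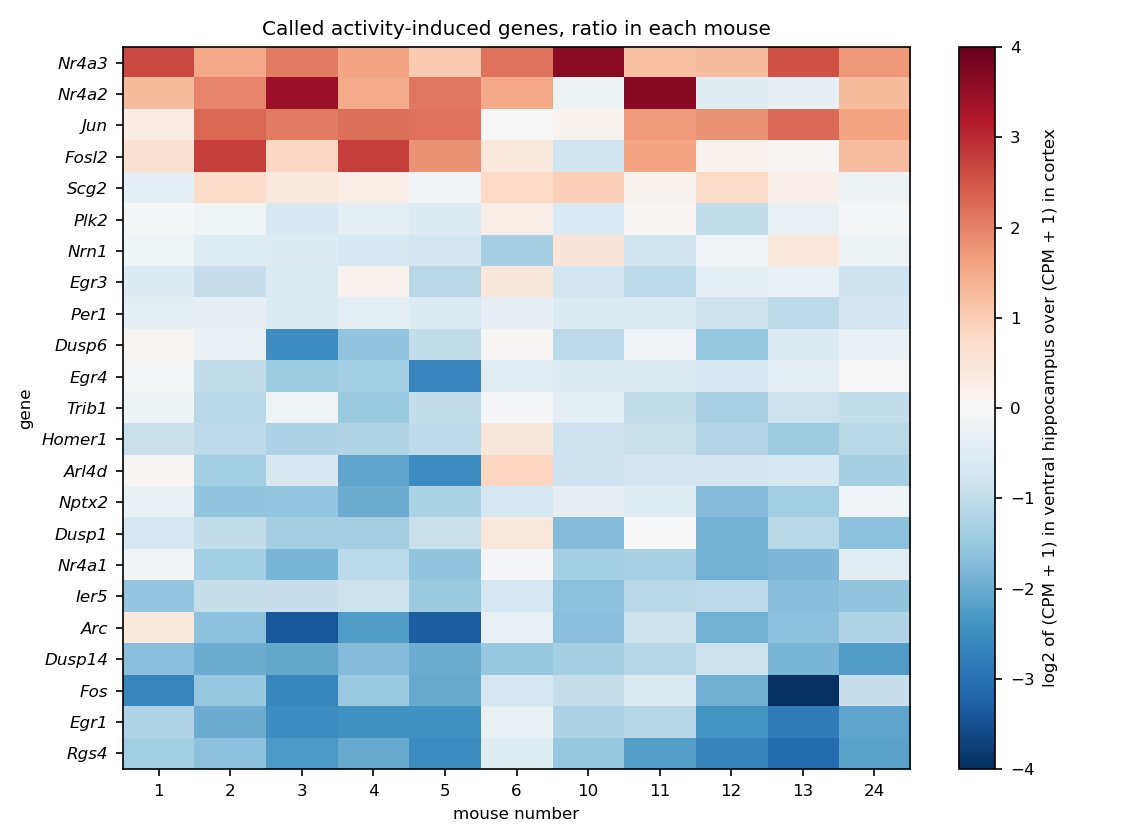
Log2 of the ratio of CPM + 1 in the ventral hippocampus to CPM + 1 in the cortex, in each of 11 mice (columns), of the activity-induced genes with an adjusted p under 0.05 (rows, ordered by fold change). Nr4a3 and Jun are red or near white in each mouse, and Fos, Egr1 and Rgs4 are blue or near white in each mouse. Mouse 6 is paler or red for several genes that are blue elsewhere.

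The orphan nuclear receptors of the Nr4a family, which are known targets of CREB, did not move together. Nr4a1 was at 16.9 to 47.9 CPM (median 33) in the ventral hippocampus against 28.8 to 105 CPM (median 74.9) in the cortex and lower in all 11 mice (log2 fold change -1.19, SE 0.16, adjusted p = 8.04e-06). Nr4a3 was at 38.4 to 138 CPM (median 55.6) against 6.98 to 30.5 CPM (median 19.4) and higher in all 11 mice, with no overlap (log2 fold change 1.93, SE 0.17, adjusted p = 2.15e-08). Nr4a2 was at 11.9 to 173 CPM (median 52.8) against 6.28 to 34.5 CPM (median 17.6) and higher in 8 of 11 mice, with mice 10, 12 and 13 as the exceptions (log2 fold change 1.55, SE 0.28, adjusted p = 1.70e-04). Jun, at 49.2 to 217 CPM (median 135) against 31.4 to 63.2 CPM (median 37.5), was also higher in all 11 mice (log2 fold change 1.54, SE 0.20, adjusted p = 2.64e-06). Fosl2 was higher in 10 of 11 mice (log2 fold change 1.17, SE 0.24, adjusted p = 7.05e-04). Whether a CREB motif bears on the direction was not tested. As a description, chosen after the directions were seen, the promoters of the 3 receptors are shown. They are taken from RefSeq (GRCm38.p6), 250 bases before to 50 after the start, 5′ to 3′ on the strand of the gene. Nr4a1 lies at chr15:101266596-101266895 (plus strand), Nr4a2 at chr2:57123954-57124253 (minus strand) and Nr4a3 at chr4:48045055-48045354 (plus strand). Capitals mark the short cyclic AMP response element (1 side of the full, palindromic one), TGACG or its reverse complement CGTCA.
Nr4a1: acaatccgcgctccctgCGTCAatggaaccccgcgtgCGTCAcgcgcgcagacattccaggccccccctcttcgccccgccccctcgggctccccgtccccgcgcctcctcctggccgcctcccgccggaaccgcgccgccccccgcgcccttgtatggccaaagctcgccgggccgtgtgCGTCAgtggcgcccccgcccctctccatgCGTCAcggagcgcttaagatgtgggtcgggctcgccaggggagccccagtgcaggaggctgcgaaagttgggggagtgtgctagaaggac
Nr4a2: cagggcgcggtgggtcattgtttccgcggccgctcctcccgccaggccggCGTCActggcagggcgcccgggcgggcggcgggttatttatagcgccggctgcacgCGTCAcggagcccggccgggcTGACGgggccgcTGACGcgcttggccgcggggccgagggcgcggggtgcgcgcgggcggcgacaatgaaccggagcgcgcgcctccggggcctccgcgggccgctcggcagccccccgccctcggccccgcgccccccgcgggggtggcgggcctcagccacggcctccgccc
Nr4a3: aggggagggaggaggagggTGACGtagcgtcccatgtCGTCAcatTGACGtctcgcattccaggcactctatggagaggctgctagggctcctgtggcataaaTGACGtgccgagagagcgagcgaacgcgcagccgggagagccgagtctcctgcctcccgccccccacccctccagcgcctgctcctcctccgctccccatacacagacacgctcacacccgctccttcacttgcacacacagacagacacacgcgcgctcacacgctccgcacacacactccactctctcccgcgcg
Each of these promoters held 4 short elements and none held the full element TGACGTCA, searched on both strands; the Fos promoter held 2 short elements and no full one. Over all 27025 promoters of this length in the table, 21.02% held a short element and 1.88% the full element. The matches describe letters and not sites. Of the activity-induced factors whose promoters were read, a short element was present in 4 of 5 that were lower and in 2 of 4 that were higher. It was also present in 2 of 3 that passed in neither direction and in 5 of 7 that were not tested. Some factors of the list, among them Egr1, which was lower, were not in this count.

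GABA-A receptor subunits changed in both directions, and their sum overlapped between regions. Of 18, 12 were tested, 4 were higher and 4 were lower (median 0.10), and the summed level of the 18 was 1684 to 2055 CPM in the ventral hippocampus and 1699 to 2251 CPM in the cortex. Gabra5, the alpha subunit of extrasynaptic receptors of pyramidal dendrites (chr7:57407672-57510059, minus strand), was at 95.5 to 342 CPM (median 174) in the ventral hippocampus against 44.7 to 63.7 CPM (median 49.5) in the cortex. All 11 ventral hippocampus values lay above all cortex values (log2 fold change 1.78, SE 0.12, adjusted p = 4.57e-10). Gabrb1 (log2 fold change 0.96, SE 0.094, adjusted p = 6.51e-08) and Gabra2 (log2 fold change 0.77, SE 0.10, adjusted p = 3.97e-06) were higher in all 11 mice too. Gabrd, the delta subunit of tonic currents that is known for its debated sensitivity to ethanol, was at 12.5 to 76.8 CPM (median 27.2) against 70.4 to 123 CPM (median 88.8) and lower in 10 of 11 mice (log2 fold change -1.52, SE 0.19, adjusted p = 1.96e-06). The exception was mouse 6, and without it the log2 fold change of Gabrd was -1.72. Gabra3 was lower, with a log2 fold change of -0.73, and Gabra4, Gabrb2, Gabrg1 and Gabrg3 did not pass. Gabrb2 passed without mouse 4 (adjusted p 0.0165) and Gabrg3 without mouse 10 (adjusted p 0.048).

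Ionotropic glutamate receptor subunits were higher in the ventral hippocampus or did not pass, with 1 exception. Of 18, 16 were tested, 8 were higher and 1 was lower (median 0.41). Gria1, the GluA1 subunit of AMPA receptors (chr11:57011387-57330244, plus strand), was at 667 to 1162 CPM (median 876) in the ventral hippocampus against 217 to 304 CPM (median 261) in the cortex. The regions did not overlap, and the log2 fold change of 1.76 (SE 0.074) had an adjusted p of 3.24e-13. Gria2, which limits calcium entry through these receptors, was at 677 to 938 CPM (median 836) against 499 to 684 CPM (median 615) and higher in all 11 mice (log2 fold change 0.42, SE 0.064, adjusted p = 3.32e-05). Gria4, a subunit of interneurons, was lower (log2 fold change -0.59, SE 0.11, adjusted p = 3.77e-04), and Gria3 did not pass (log2 fold change -0.11, SE 0.085, adjusted p = 0.373). Of the NMDA receptor genes, Grin2a and Grin2b were higher by 0.37 and 0.44 and Grin3a by 1.04 on the log2 scale, while the obligatory subunit Grin1 did not pass (log2 fold change -0.18, SE 0.082, adjusted p = 0.105). The kainate receptor subunit Grik2 was at 51 to 81.4 CPM (median 67.5) against 25.9 to 50.5 CPM (median 33.5), with no overlap (log2 fold change 0.85, SE 0.12, adjusted p = 1.11e-05). Of 8 metabotropic receptors 7 were tested, of which 2 were higher and 1 was lower. Grm5 was higher in all 11 mice (log2 fold change 0.95, SE 0.093, adjusted p = 7.05e-08), and Grm3, a receptor of glia and presynaptic terminals, was lower (log2 fold change -0.45, SE 0.12, adjusted p = 0.00729).

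**Figure D5:**
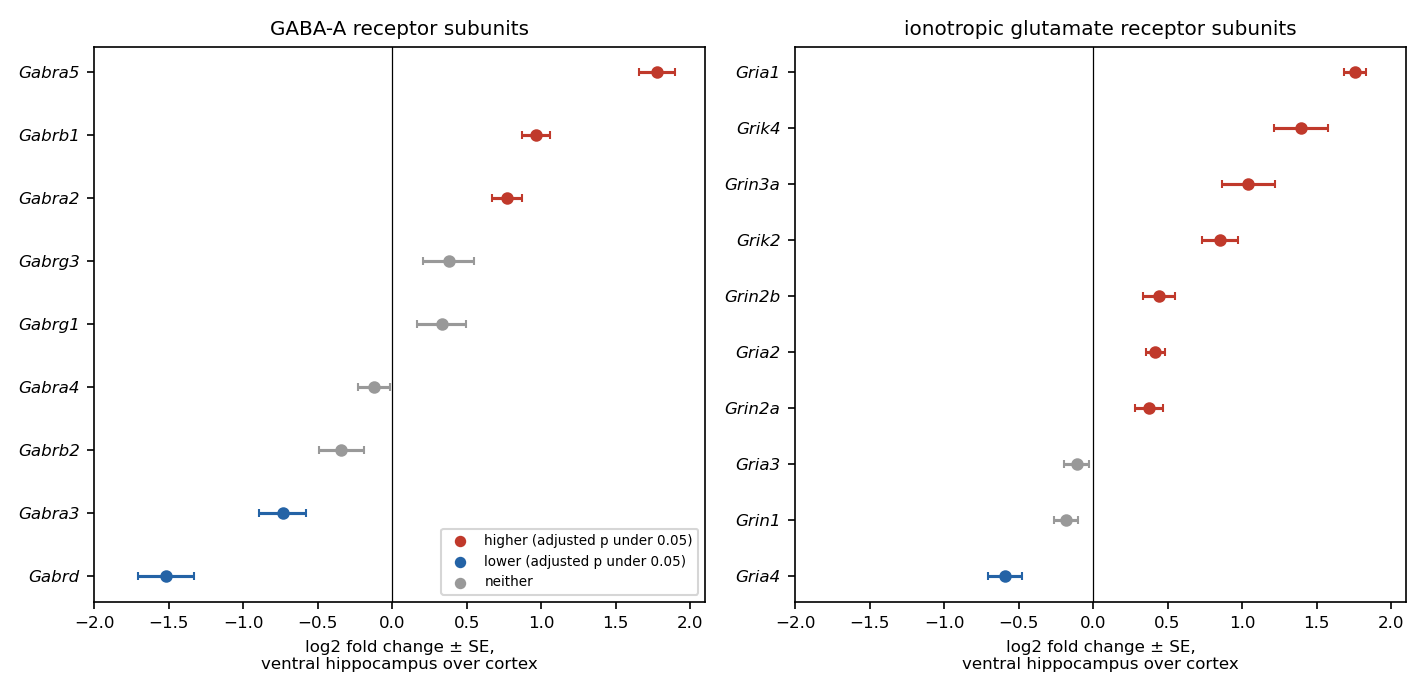
Log2 fold change with its SE, ventral hippocampus over cortex in 11 paired mice, of the tested GABA-A (left) and ionotropic glutamate (right) receptor subunits that are named here; red and blue mark subunits with an adjusted p under 0.05. Gabra5 and Gria1 lie farthest to the right, at 1.78 and 1.76, and Gabrd farthest to the left, at -1.52.

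GABA neuron genes showed no common direction. Of 30, 24 were tested, 7 were higher and 5 were lower (median 0.14); with no filter 11 were higher. The GABA synthesis genes Gad1 (log2 fold change -0.04, SE 0.10, adjusted p = 0.81) and Gad2 (log2 fold change 0.34, SE 0.15, adjusted p = 0.0936) did not pass. Pvalb, the calcium buffer of fast-spiking neurons, was at 22.3 to 88.9 CPM (median 29.9) in the ventral hippocampus against 56.6 to 174 CPM (median 122) in the cortex and lower in all 11 mice (log2 fold change -1.79, SE 0.16, adjusted p = 1.27e-08). The peptide Vip was at 12 to 30.6 CPM (median 24.9) against 43 to 73.7 CPM (median 60.7), with no overlap (log2 fold change -1.38, SE 0.14, adjusted p = 9.73e-08), and Npy was lower in all 11 mice as well (log2 fold change -1.21, SE 0.16, adjusted p = 3.95e-06). Somatostatin (Sst) was at 80.2 to 269 CPM (median 148) against 95.1 to 159 CPM (median 139) and did not pass (log2 fold change 0.15, SE 0.13, adjusted p = 0.41). Nos1, the neuronal nitric oxide synthase, was at 66.8 to 139.8 CPM (median 101) against 11.5 to 34.4 CPM (median 25.6), with no overlap (log2 fold change 2.03, SE 0.15, adjusted p = 1.80e-09). Kit, a receptor tyrosine kinase, was at 55.9 to 178 CPM (median 89.3) against 24.7 to 47.8 CPM (median 30.8), again with no overlap (log2 fold change 1.53, SE 0.13, adjusted p = 7.86e-09). The cannabinoid receptor Cnr1, found on terminals of CCK neurons and on excitatory terminals, was at 126 to 315 CPM (median 221) against 86.9 to 145 CPM (median 119.9) and higher in all 11 mice (log2 fold change 0.84, SE 0.12, adjusted p = 1.48e-05). Slc32a1, the vesicular GABA transporter, passed when mouse 6 was left out (-0.31 on the log2 scale, adjusted p = 0.0116) and not with it (log2 fold change -0.14, SE 0.15, adjusted p = 0.55).

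Receptors for amines and acetylcholine changed in both directions, and the balance depended on the filter. Of 39, 19 were tested, 9 were lower and 4 were higher (median -0.17). With no filter on low counts 11 were higher, among them Drd5 and Htr4, and 10 were lower. With a log2 fold change of at least 1 asked for as well, 3 were higher and 2 were lower. Htr1a, the inhibitory serotonin receptor of CA1 pyramidal cells, was at 25.2 to 53.4 CPM (median 39.7) in the ventral hippocampus against 9.3 to 22.3 CPM (median 14) in the cortex, with no overlap (log2 fold change 1.40, SE 0.16, adjusted p = 4.46e-07). Htr2a, an excitatory serotonin receptor, was at 10.9 to 30.1 CPM (median 16.5) against 27.2 to 52.9 CPM (median 36.5) and lower in 10 of 11 mice (log2 fold change -1.05, SE 0.15, adjusted p = 8.94e-06). The nicotinic receptor subunit Chrna7 was at 6.23 to 39 CPM (median 20.6) against 4.74 to 13.9 CPM (median 7.75) and higher in 10 of 11 mice (log2 fold change 1.19, SE 0.19, adjusted p = 5.32e-05). The muscarinic receptors Chrm2 and Chrm3 were lower, with log2 fold changes of -0.99 and -0.82, and Chrm1 did not pass (log2 fold change 0.06, SE 0.079, adjusted p = 0.634). The adrenergic genes Adra1b and Adrb1 were lower (-1.41 and -0.85 on the log2 scale), and Adra2a was higher (0.91). The dopamine receptors Drd1 and Drd2 were below the filter. Outside mouse 6, whose ventral hippocampus had 139 and 110 CPM, they were at most 16.5 and 15.6 CPM there.

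Of 46 genes for neuropeptides, peptide receptors and steroid receptors, 25 were tested, 4 were higher and 6 were lower (median 0.09), beside 13.8% higher and 13.9% lower over all genes. Without mouse 6, 9 were lower, and with no filter on low counts 10 were higher and 10 were lower. The mineralocorticoid receptor Nr3c2, which binds corticosterone with high affinity, was at 71.6 to 207 CPM (median 147) in the ventral hippocampus against 24.7 to 47.5 CPM (median 34.9) in the cortex, with no overlap (log2 fold change 1.83, SE 0.14, adjusted p = 3.36e-09). Its partner, the glucocorticoid receptor Nr3c1, went the other way, at 87.5 to 140.2 CPM (median 104) against 116 to 186 CPM (median 149), and was lower in all 11 mice (log2 fold change -0.52, SE 0.086, adjusted p = 6.90e-05). Cckbr, the brain receptor for cholecystokinin, was at 1.99 to 24 CPM (median 15.8) against 41.9 to 86.3 CPM (median 64.4), with no overlap (log2 fold change -2.12, SE 0.22, adjusted p = 1.78e-07); its ligand gene Cck did not pass (log2 fold change -0.23, SE 0.11, adjusted p = 0.113). The CRF receptor Crhr1 was lower in 10 of 11 mice (log2 fold change -0.98, SE 0.16, adjusted p = 7.68e-05), and the PACAP receptor Adcyap1r1 was higher in 10 of 11 (log2 fold change 0.62, SE 0.11, adjusted p = 1.11e-04). The opioid peptide genes depended on mouse 6. Penk was at 770 CPM in the ventral hippocampus of mouse 6 and at 11.3 to 84.0 CPM in the other 10, and its log2 fold change was -0.95 (adjusted p = 0.154) with and -1.59 (adjusted p = 1.48e-04) without that mouse. Pdyn changed in the same way, from -0.56 (adjusted p = 0.245) to -1.04 (adjusted p = 0.0024).

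Voltage-gated potassium and HCN channel genes were lower more often than higher. Of 48, 42 were tested, 18 were lower and 8 were higher (median -0.26), beside 13.9% lower and 13.8% higher over all genes. Genes of the ether-a-go-go family, Kcnh4, Kcnh5 (-2.15), Kcnh7 (-1.67), Kcnh3 (-0.94), Kcnh1 (-0.93) and Kcnh2 (-0.46), were lower. Kcnh2 was lower in 8 of 11 mice and did not pass without mouse 2, 3, 5, 11 or 12 (adjusted p 0.0232 to 0.117 with each mouse left out in turn). Kcnh7 was at 19.9 to 98.3 CPM (median 56.3) in the ventral hippocampus against 115 to 303 CPM (median 165) in the cortex, with no overlap (log2 fold change -1.67, SE 0.19, adjusted p = 7.72e-07). The silent subunits Kcns1 (-1.61) and Kcnv1 (-1.41), which assemble with other channel subunits, were lower without overlap too. Kcng1, another silent subunit, was higher in 9 of 11 mice (log2 fold change 1.46, SE 0.26, adjusted p = 1.96e-04). The A-type channel Kcnd3 was at 68.5 to 158 CPM (median 118) against 39.5 to 77.7 CPM (median 49.5) and higher in all 11 mice (log2 fold change 1.07, SE 0.12, adjusted p = 4.29e-07). Beta subunits split: Kcnab3 was lower, Kcnab1 was higher (log2 fold change 0.89, SE 0.14, adjusted p = 4.21e-05) and Kcnab2 did not pass (log2 fold change 0.17, SE 0.10, adjusted p = 0.236). Of the HCN genes, Hcn2 was lower (log2 fold change -0.48, SE 0.087, adjusted p = 1.96e-04).

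Adhesion and guidance genes, the longest of the 18 lists, held the largest number of members that passed. Of 60, 56 were tested, 28 were higher and 16 were lower (median 0.40). Slit1, a secreted repellent, was at 69.6 to 301 CPM (median 172) in the ventral hippocampus against 23 to 53.3 CPM (median 34.9) in the cortex, with no overlap (log2 fold change 2.34, SE 0.16, adjusted p = 4.10e-10); Slit3 was higher by 1.24 on the log2 scale, and Slit2 did not pass (log2 fold change 0.44, SE 0.17, adjusted p = 0.0612), though it did without mouse 3, 6, 11 or 12 (adjusted p 0.0239 to 0.188 with each mouse left out in turn). Of their receptors, Robo1 was higher (0.88) and Robo3 was lower (-1.53, in 9 of 11 mice), while Robo2 did not pass (log2 fold change -0.17, SE 0.10, adjusted p = 0.254). Nrp1, the co-receptor of class 3 semaphorins, was at 21.8 to 85.4 CPM (median 53.7) against 4.4 to 18.6 CPM (median 12.9), with no overlap (log2 fold change 2.21, SE 0.13, adjusted p = 1.21e-10), and Nrp2 was higher in 9 of 11 mice (log2 fold change 1.45, SE 0.27, adjusted p = 3.17e-04). The ligands split, with Sema3e and Sema5a higher (1.50 and 2.26) and Sema3a and Sema7a lower (-1.86 and -1.27). Sema3a was lower in 10 of 11 mice, the exception being mouse 6, and its log2 fold change was -2.46 without that mouse. Plxnd1, a plexin that binds Sema3e, was at 12.9 to 82 CPM (median 39.6) against 99.6 to 209 CPM (median 135), with no overlap (log2 fold change -1.96, SE 0.19, adjusted p = 7.05e-08). The type II cadherin Cdh9, known from the mossy fibre synapse in CA3, was at 18.7 to 61.9 CPM (median 42.9) against 4.19 to 13.3 CPM (median 8.09), with no overlap (log2 fold change 2.30, SE 0.19, adjusted p = 6.77e-09). Pcdh19 was higher without overlap as well (log2 fold change 1.74, SE 0.14, adjusted p = 5.07e-09), and Pcdh7 was lower without overlap (log2 fold change -1.25, SE 0.11, adjusted p = 7.86e-09). Efnb3, an ephrin ligand, was at 93.6 to 270.3 CPM (median 166) against 24.3 to 59.2 CPM (median 42.6), with no overlap (log2 fold change 1.89, SE 0.14, adjusted p = 1.34e-09). Each of these calls was made over 11 mice, and with counts of at least 30 in 11 libraries as the filter, 18 were higher and 10 lower.

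Of 21 matrix and perineuronal net genes, 12 were tested, 4 were higher and 4 were lower (median 0.27); without the mouse as a block 2 were lower. Tenascin-R (Tnr) was higher in all 11 mice (log2 fold change 0.58, SE 0.10, adjusted p = 1.19e-04), and Hapln4, which links hyaluronan to proteoglycans in the nets around fast-spiking neurons, was lower in 10 of 11 (log2 fold change -0.82, SE 0.15, adjusted p = 1.68e-04). Of 24 genes of ethanol and acetate metabolism, 18 were tested, 4 were higher and 1 was lower (median 0.06), 27.8% of those tested against the 27.7% of all genes. The monocarboxylate carrier Slc16a1, which moves lactate and acetate, was at 25.8 to 51 CPM (median 31.8) in the ventral hippocampus against 8.37 to 33.7 CPM (median 22) in the cortex and higher in 10 of 11 mice (log2 fold change 0.75, SE 0.15, adjusted p = 5.19e-04). The mitochondrial thiolase Acat1 was higher in all 11 mice (log2 fold change 0.31, SE 0.077, adjusted p = 0.00384). Catalase (Cat), a route of ethanol oxidation in the brain, was higher in 9 of 11 mice (log2 fold change 0.34, SE 0.12, adjusted p = 0.0482) and did not pass without mouse 1, 3, 4, 5, 10, 12, 13 or 24 (adjusted p 0.0198 to 0.122 with each mouse left out in turn). Aldh1a1 was lower in 8 of 11 mice (log2 fold change -0.52, SE 0.19, adjusted p = 0.0422) and did not pass without mouse 2, 3, 4, 5, 10, 11 or 24 (adjusted p 0.00791 to 0.102 with each mouse left out in turn). The acetaldehyde dehydrogenase Aldh2 (log2 fold change -0.04, SE 0.09, adjusted p = 0.758), the ATP-citrate lyase Acly (log2 fold change 0.09, SE 0.087, adjusted p = 0.494) and Acss1, the mitochondrial relative of Acss2 (log2 fold change 0.14, SE 0.13, adjusted p = 0.488), did not pass.

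Markers of other cells were read beside these groups. Of 10 astrocyte markers, all tested, 4 were higher and 1 was lower (median -0.03). Gfap, the intermediate filament of astrocytes, was at 249.7 to 667 CPM (median 441) in the ventral hippocampus against 61.6 to 169 CPM (median 128) in the cortex, with no overlap (log2 fold change 1.89, SE 0.12, adjusted p = 2.61e-10), and the water channel Aqp4 was higher in all 11 mice (log2 fold change 0.69, SE 0.10, adjusted p = 9.11e-06). Aldh1l1 was lower (log2 fold change -0.60, SE 0.11, adjusted p = 2.06e-04). Of 10 microglia markers 0 passed by edgeR or DESeq2, and 1 was higher and 0 were lower at an unadjusted p under 0.05 by edgeR; 1 was higher without mouse 3 or 10. Of 9 tested markers of vessels 0 passed by either tool, and 0 were higher and 2 were lower at an unadjusted p under 0.05 by edgeR; 1 was lower without mouse 12 or 24. The precursor marker Pdgfra was higher in all 11 mice (log2 fold change 0.72, SE 0.12, adjusted p = 9.65e-05). Of 10 tested oligodendrocyte markers 1 was higher, Cldn11 (log2 fold change 0.59, SE 0.20, adjusted p = 0.0271), which did not pass without mouse 1, 2, 6, 10 or 11 (adjusted p 7.72e-04 to 0.0902 with each mouse left out in turn), while 4 were higher without mouse 4. For 11 such markers the sum was 1672 to 10043 CPM in the ventral hippocampus and 2743 to 7409 CPM in the cortex. Pallial excitatory markers summed to 4053 to 8319 CPM and 4717 to 6600 CPM, so both labelled regions held the RNA of such neurons. Of 11 choroid plexus genes only Enpp2 was tested; Ttr, the defining one, was at 0 to 75.8 CPM in the ventral hippocampus, and in the cortex at 1092 CPM in mouse 4 and at 0 to 31 CPM in the other 10 mice. Of 8 thalamus genes 4 were tested, of which 2 were higher and 1 was lower. Their sum was 102 to 458 CPM in the ventral hippocampus, highest in mice 1 and 10, and 141 to 252 CPM in the cortex. The part of the cells of these marker lists in the results above was not tested.

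Whether the difference between regions depended on genotype or sex was asked with an interaction term. No gene passed for genotype, KO against WT (0 of 9756, 0%); 678 genes had an unadjusted p under 0.05 with edgeR and 227 with DESeq2, which also called 0. With no filter on low counts edgeR called 35 genes. No gene passed for sex, which is also the split between the deposited tables (0 of 9756, 0%), with 448 genes at an unadjusted p under 0.05 and 148 with DESeq2, and 41 were called with no filter. Within WT mice alone 1659 genes differed between regions and 1506 of these were among the 2704. Within KO mice alone 1579 differed, of which 1479 were shared. With 5 and 6 mice, an interaction that misses the threshold does not show that the genotypes are alike. For the genes above, the differences between KO and WT in the region contrast were -0.08 (SE 0.15) on the log2 scale for Gria1, -0.39 (SE 0.23) for Gabra5, -0.68 (SE 0.77) for Npy2r and 0.60 (SE 0.35) for Egr1. The unadjusted p was 0.61, 0.107, 0.388 and 0.107 in that order, from edgeR's quasi-likelihood test across all genes.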

How the data were processed

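The deposited files hold raw counts of reads per gene symbol, 1 table for the male and 1 for the female mice. Per the submitters' processing notes, the authors used STAR 2.5.2a, SAMtools 1.1, HTSeq 0.6.1, DESeq2 and R 4.0.2 with builds GRCm38 and mm10, and per the labels' protocols poly(A) RNA was selected from 300 ng of total RNA. The strand setting and the annotation used in counting are not given in the sources used here, so overlapping antisense genes and close paralogs share uncertainty. Columns were matched to samples by their titles.

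From the deposited counts, CPM were computed per library without scaling. Genes were kept with edgeR's filterByExpr (minimum count 10, total 15), scaled by TMM and tested with edgeR 4.0.16's quasi-likelihood test (R 4.3.3, limma 3.58.1) in a model with region and the mouse as a block, with Benjamini-Hochberg adjustment over all genes tested. SE is the log2 fold change divided by the square root of F. Interaction terms of region with genotype and sex used the same block. DESeq2 1.42.0 served as an alternative. The fit was tested on simulated data. The labels give both regions of a mouse the same animal number, which pairs them; the correlation of their deviations from group means was -0.0749 to 0.126 (mean 0.0207), with 2 of 11 over 0.1, against a mean of -0.0114 for 20 pairs of different mice. Mice are separate animals, and with the mouse as a block the p-values rest on the spread of the region difference between mice. Each mouse gave a single library per region, so variation from dissection and library is part of that spread.

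Named are the 15 genes with the largest change each way among those with an adjusted p under 0.05, 1 sign in all 11 mice and, in the higher region, a mean CPM of 10 or more, and members of 18 gene lists (a gene may stand in several), of the marker lists, and Acss2. The members and lists were chosen with earlier results of these data known. Gene coordinates are from GENCODE M21 on GRCm38. Other brain regions enter as a description only, and other samples were not used here. Some list members are counted but not reported by name here.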

Additional observations from a re-analysis of the deposited data

Results flagged for a closer look

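Depth and the summed CPM of 11 marker lists were compared within each region and genotype (5 WT or 6 KO libraries), and a library was singled out when its gap to the next one was large for its group's range by Dixon's 95% limit. This gave 10 of 48 group values, where chance gives about 1 in 20. Their part in the results was not tested. The largest was the striatal projection neuron sum of the KO ventral hippocampus library of mouse 6, 4356.3 CPM against 175.9 to 302.51 CPM in the others. The WT cortex library of mouse 24 was high for the same striatal genes (778.43 CPM against 304.65 to 412 CPM) and for oligodendrocyte genes (4574.3 CPM against 2813.1 to 3080.3 CPM).

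The choroid plexus sum of the KO cortex library of mouse 4 was 1684.3 CPM, against 184.19 to 316.93 CPM in the other KO cortex libraries. Ependyma genes summed to 40.815 CPM in the KO ventral hippocampus of mouse 10 (7.944 to 18.449 CPM in the others) and to 35.372 CPM in the WT one of mouse 24 (6.3529 to 7.4759 CPM). The KO ventral hippocampus of mouse 2 was high for oligodendrocyte precursor genes (184.08 CPM against 105.54 to 124.29 CPM) and for meninges genes (37.313 CPM against 14.405 to 22.334 CPM). Microglia genes summed to 588.01 CPM in the KO cortex of mouse 5, against 431.26 to 474.9 CPM. The sum of pallial excitatory neuron genes was 7108.9 CPM in the KO ventral hippocampus of mouse 1, against 4053 to 4954.8 CPM in the others.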

How the results depend on the processing

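The count of 2704 genes that differed between regions was 2696 with DESeq2's size factors, 3028 of 25650 genes with no filter on low counts, 2130 with at least 30 counts in 11 libraries, 1985 with the DESeq2 Wald test and 1818 at an adjusted p under 0.01. With 1 mouse left out it was 2390 to 2718, and 2718 without mouse 6, of which 2480 were shared. With fewer mice it was 1659 (WT mice only), 1579 (KO mice only), 1599 (male mice only) and 1452 (female mice only), and 412 with a log2 fold change of at least 1 as well. Without the replicate block, with sex and genotype in its place, 2755 genes differed, 2585 of them shared; the interactions then gave 0 calls each. The block changed a call for 4 of the named genes, all lost without it: Aldh1a1, Kcnh2, Ppp1r1b and Spock1. The genotype interaction gave 0 calls in all but 1 alternative, 35 with no filter, and the sex interaction 41 with no filter and 0 to 3 with 1 mouse left out, 1 without mouse 2 and 3 without mouse 3. The cause was not tested. Of 146 named genes that passed, 108 kept their call in all fits in which they were tested. With each mouse left out in turn, 139 kept it wherever they were tested. Among these 139, the filter left Amigo2 and Calb2 in 9 of the 11 such fits and Kcnh5 and Rspo1 in 10.

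A log2 fold change turned its sign for genes that did not pass over all mice, and for none that did. In WT mice alone it was -0.129 for Acly, -0.025 for Acss1, 0.001 for Acss2, -0.043 for Gad2 and -0.01 for Wfs1. In male mice alone it was -0.009 for Acly, -0.013 for Acss1, 0.05 for Acss2, -0.003 for Gabrg3, -0.094 for Sst and -0.324 for Wfs1. In KO mice alone it was 0.064 for Aldh2, 0.029 for Gad1 and 0.07 for Slc32a1. In female mice alone it was -0.001 for Bdnf, 0.096 for Gad1, 0.079 for Gria3, 0.086 for Mef2d, 0.608 for Rprm and 0.031 for Slc32a1. With 1 mouse left out it was -0.103 to 0.026 for Gad1, -0.391 to 0.103 for Rprm and -0.091 to 0.32 for Wfs1.

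Counts of list members under each alternative were added after seeing the data. With the stricter filter 2 dentate gyrus genes, 5 of the ventral pole, 6 of the deep layers and 3 of GABA neurons were higher (4 of GABA neurons lower), and 7 activity-induced effectors and 2 amine receptors lower (0 higher), with fewer members tested. The depth limits values at the floor of 3 counts, 2.49 to 4.76 CPM.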

Other observations

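Some low genes left out of the test by the filter on counts were on 1 side in every mouse, chosen here after their values were seen. Tdo2, which encodes tryptophan dioxygenase and is known from granule cells, was at 1.04 to 20.8 CPM in the ventral hippocampus (median 6.72) and at 0 in all 11 cortex libraries, which allows at most 2.96 to 4.19 CPM there. Its dorsal hippocampus median was 13.7 CPM. Crh, the stress peptide made by cortical GABA neurons, was at 0 to 7.28 CPM (median 1.66) in the ventral hippocampus against 2.09 to 14.2 CPM (median 6.74) in the cortex, lower in all 11 mice. Ier2, an immediate early gene, was at 1.21 to 7.94 CPM (median 4.16) against 4.32 to 18.7 CPM (median 10.5), also lower in all 11 mice. Sstr4, a somatostatin receptor, was at 4.76 to 20.3 CPM (median 14.5) against 2.35 to 10.8 CPM (median 6.6) and higher in all 11 mice.

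The cortex libraries of mice 1, 10, 12 and 13, all male, held more counts of 3 genes than the rest, a pattern noticed after the values were seen. Lars2, the mitochondrial leucyl-tRNA synthetase, was at 874, 1061, 488 and 545 CPM in these libraries and at 72.0 to 132.5 CPM in the other 7. CT010467.1, annotated as ribosomal RNA, was at 13180, 18650, 7561 and 8753 CPM, against 970 to 2490 CPM. Gm23935 was at 366, 343, 130 and 92.8 CPM, against 7.05 to 36.2 CPM. In the ventral hippocampus of the same 4 mice Lars2 was at 36.4 to 97.9 CPM, within the 36.4 to 110 CPM of all 11. These were the genes with the smallest p for the sex interaction, with edgeR adjusted p values of 0.19 (Gm23935 and CT010467.1) and 0.442 (Lars2), and none passed.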
